A study of Mus musculus with 6 samples.

Results

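Interferon regulatory factors (IRF proteins) are transcription factors that share a DNA-binding domain and recognise repeats of GAAA in the promoters of interferon and immune genes. The 8 family genes Irf1, Irf2, Irf3, Irf4, Irf5, Irf7, Irf8 and Irf9 were taken by symbol from a table of 55421 genes, and all 8 were among the 14469 genes with enough counts to test. RNA was sequenced from tumor-associated macrophages (TAMs) sorted as live CD45+CD11b+F4/80+Ly6G− cells 15 days after implantation of MC17-51 fibrosarcoma cells (M17 in the labels), a mouse tumor line. The mice were 8 to 12 weeks old at implantation. All mice carried floxed Pdcd1, the gene for the checkpoint receptor PD-1. The 3 Pdcd1f/fLysMcre libraries came from mice that also carried Cre under the lysozyme (LysM) promoter, which acts in macrophages, monocytes and neutrophils and not in TAMs alone, and the 3 Pdcd1f/f libraries came from controls without Cre. The labels do not say whether each library was made from a separate mouse, so p-values measure the spread between these libraries, which may in part be technical. The counts measure RNA and not IRF protein, its phosphorylation or its binding to DNA.

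IRF proteins fall into groups by role. IRF3 and IRF7 are phosphorylated below nucleic acid sensors and switch on type I interferon genes, and IRF5 drives inflammatory cytokine genes below Toll-like receptors. IRF9 is the main DNA-binding part of the complex ISGF3, which turns on antiviral genes below the interferon receptor. IRF1 is itself induced by interferon-γ and activates genes of antigen presentation, and IRF2 can compete with it for the same sites. IRF8 and IRF4 bind DNA weakly alone and act with partners such as PU.1 and the AP-1 proteins BATF and JUN. IRF8 directs monocytic progenitors towards macrophages and dendritic cells, and IRF4 is linked to alternative macrophage activation.

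Libraries held from 41833823 to 51417209 counts. Pdcd1 had from 7 to 16 counts in every library and did not separate the genotypes, while Lyz2, the gene at which the Cre is inserted, had from 4406 to 4803 CPM (counts scaled to the size of the library) without Cre and from 8.46 to 9.78 CPM with it. Summed CPM of 4 Y-linked genes ranged from 32.7 to 40.8 in Pdcd1f/f and from 133 to 151 in Pdcd1f/fLysMcre libraries, so sex composition and genotype cannot be told apart. Every library with Cre also had this low Lyz2 RNA. An effect of Cre or of Lyz2 loss therefore cannot be told apart from one of deleting Pdcd1. In Pdcd1f/f replicate 1 and Pdcd1f/fLysMcre replicate 2 the deviation of a gene from its genotype's mean followed its GC content with a Spearman rho of −0.80 and −0.75, against 0.22 to 0.77 in the other 4 libraries. This is a correlation across 8811 genes, which are not independent replicates. Results for the members and calls for the gene lists are therefore also given without these 2 libraries, and with offsets that adjust for GC content and gene length.

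Irf1 and Irf8 were the members with the lowest RNA relative to control in Pdcd1f/fLysMcre TAMs. Their promoters are shown because the RNA of these genes moved together over the 6 libraries, beside that of Irf2, whose RNA did not. The sequences are the 250 bases before the most upstream RefSeq start site on the forward strand of GRCm38.p6, at chr8:120736108-120736357 for Irf8, chr11:53769764-53770013 for Irf1 and chr8:46739495-46739744 for Irf2. Capitals mark the interferon-γ activated site, GAS (TTCNNNGAA), and the IRF motif ISRE (GAAA, 2 bases of any kind and GAAA), both searched on either strand.
Irf8: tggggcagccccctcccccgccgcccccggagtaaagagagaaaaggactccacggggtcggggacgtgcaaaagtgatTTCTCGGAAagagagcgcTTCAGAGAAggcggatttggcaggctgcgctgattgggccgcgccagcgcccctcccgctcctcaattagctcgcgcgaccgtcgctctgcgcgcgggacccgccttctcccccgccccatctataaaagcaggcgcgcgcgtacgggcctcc
Irf1: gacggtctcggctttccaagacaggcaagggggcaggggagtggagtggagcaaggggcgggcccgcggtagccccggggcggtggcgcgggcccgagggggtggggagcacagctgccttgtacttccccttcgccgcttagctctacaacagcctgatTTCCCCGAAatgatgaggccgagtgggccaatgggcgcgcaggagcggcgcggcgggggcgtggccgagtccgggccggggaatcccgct
Irf2: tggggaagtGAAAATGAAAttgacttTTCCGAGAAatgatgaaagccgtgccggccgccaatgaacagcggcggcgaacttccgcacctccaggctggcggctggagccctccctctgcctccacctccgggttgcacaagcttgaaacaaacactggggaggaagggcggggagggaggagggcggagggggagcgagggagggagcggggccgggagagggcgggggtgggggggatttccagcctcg

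The Irf8 promoter held GAS matches that begin at −171 and −153 relative to the start site, and the Irf1 promoter held a GAS match at −90. The Irf2 promoter held an ISRE at −241 and a GAS match at −224. A PU.1-IRF composite motif (GGAA, 2 bases of any kind and GAAA) at −247 of Irf2 overlaps the ISRE. The kappaB motif was matched at −13 of Irf1 and −17 of Irf2. Windows of 300 bases, with 50 after the start site, were searched for all 8 members, and those of Irf3, Irf4, Irf5, Irf7 and Irf9 held no match to any of these motifs. Among 32851 RefSeq windows of this length, 8.30% held a GAS match, 3.44% an ISRE, 2.72% the composite motif and 8.46% a kappaB match. A match is a stretch of letters and not a measured binding site.

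Per length of exon, Irf7 was the most abundant member and Irf4 the least. In Pdcd1f/f TAMs Irf7 had 65.02 ± 9.93 CPM per kilobase of exons (SD, n = 3) and Irf5 had 42.8 ± 3.999. Irf1 followed at 15.1 ± 1.19, Irf9 at 13.9 ± 0.298 and Irf8 at 12.8 ± 1.13, with Irf2 at 9.81 ± 0.374, Irf3 at 9.61 ± 1.31 and Irf4 at 0.802 ± 0.0183. Libraries of Irf1 and Irf9 overlapped, as did those of Irf2 and Irf3, so neither order is set beyond the spread. Every other pair of neighbours was apart in all 3 libraries.

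In Pdcd1f/fLysMcre TAMs the order differed at 1 place, where Irf9 (14.5 ± 0.519 CPM per kilobase) stood above Irf1 (11.7 ± 1.236). Irf7 was at 56.6 ± 4.23, Irf5 at 38.7 ± 2.79, Irf8 at 10.3 ± 0.485, Irf2 at 9.57 ± 0.219, Irf3 at 8.68 ± 0.766 and Irf4 at 0.820 ± 0.0240 (SD, n = 3 each). Here Irf1 and Irf8 overlapped, and Irf2 and Irf3 overlapped again. The place of Irf9 depends on the length used. With the longest transcript in place of all exons it stood behind Irf1 and Irf8 in both genotypes.

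**Figure D1:**
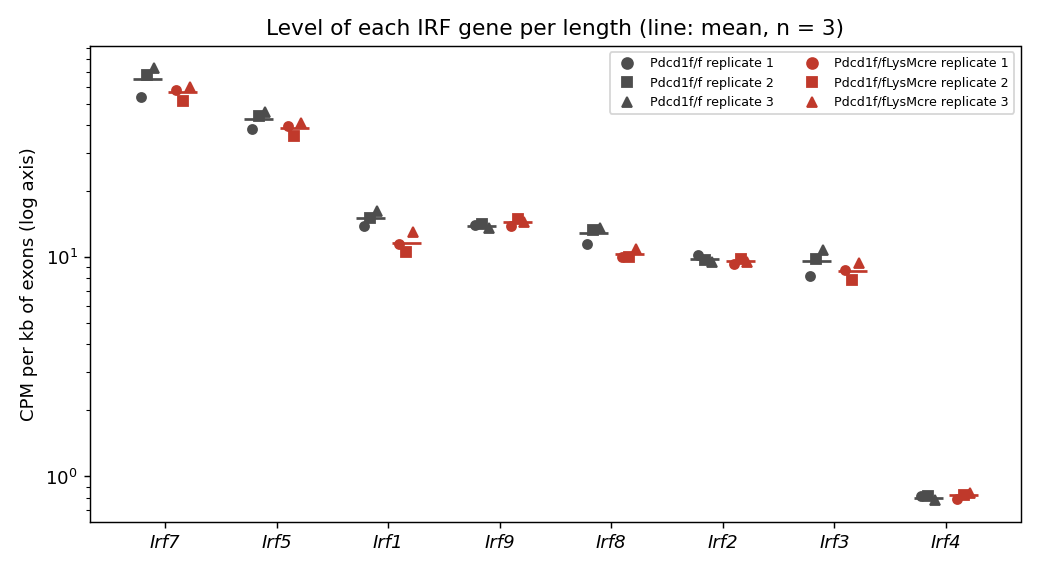
Level of each IRF gene in CPM per kilobase of exons on a log axis, with 1 point for each library and a line at the mean of 3. Irf7 and Irf5 lie above the other members in both genotypes, and Irf4, near 0.8, lies below them.

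As shares of the family's summed level, Irf7 made up 38.1% ± 2.12 in Pdcd1f/f and 37.5% ± 0.790 in Pdcd1f/fLysMcre TAMs, and Irf5 25.2% ± 0.174 and 25.7% ± 0.437 (SD, n = 3 each). The share of Irf1 was 8.93% ± 0.280 and 7.72% ± 0.382, and that of Irf8 7.56% ± 0.151 and 6.84% ± 0.239. For Irf1 and Irf8 the 3 shares in Pdcd1f/fLysMcre libraries were all below the 3 in controls. The summed level of the 8 members was 170 ± 17.0 CPM per kilobase in Pdcd1f/f and 151 ± 8.87 in Pdcd1f/fLysMcre TAMs, with libraries that overlapped.

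Between the genotypes, Irf1 was the only one of the 8 members past an adjusted p of 0.05 in edgeR's quasi-likelihood test with all 6 libraries, and it was lower in Pdcd1f/fLysMcre TAMs. Over all genes tested, 5.43% passed, 2.42% as higher and 3.01% as lower. No member was higher, also at an unadjusted p under 0.05 (0 members) and with DESeq2 (0 members). At an unadjusted p under 0.05 the share over all genes was 24.2%, with 12.3% higher, DESeq2 called 12.2%, with 5.99% higher, and limma-trend called 4.57%. The log2 fold change was negative for 6 members and positive for 2, with a median of −0.13 against −0.0026 over all genes. The libraries of the 2 genotypes did not overlap for 2 of the 8 members, Irf1 and Irf8, against 27.5% of all genes tested, so this share is near the background.

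Irf1 (ENSMUSG00000018899) lies on the forward strand of chromosome 11 of GRCm38, from 53770014 to 53778374. It had 2600, 2817 and 3064 normalized counts in Pdcd1f/f TAMs and 2172, 2002 and 2426 in Pdcd1f/fLysMcre TAMs. All 3 libraries with Cre were below all 3 controls. The log2 fold change was −0.36 (SE 0.09, 95% interval −0.56 to −0.16, adjusted p = 0.0446 from edgeR), 22.1% lower. The call was kept in 12 of 16 alternative fits but in 2 of the 6 that left out 1 library, with a log2 fold change between −0.44 and −0.30, and was lost without Pdcd1f/f replicate 2 or 3 or without Pdcd1f/fLysMcre replicate 1 or 2, with an adjusted p of up to 0.185.

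Irf8 (ENSMUSG00000041515) lies on the forward strand of chromosome 8, from 120736358 to 120756694. Normalized counts were 3818, 4412 and 4530 in Pdcd1f/f TAMs and 3368, 3384 and 3605 in Pdcd1f/fLysMcre TAMs. The genotypes did not overlap, and the nearest libraries were Pdcd1f/f replicate 1 and Pdcd1f/fLysMcre replicate 3. The log2 fold change was −0.30 (SE 0.08, 95% interval −0.47 to −0.13), and the adjusted p of 0.0519 from edgeR lay just outside the threshold. Irf8 crossed it in 10 of 16 alternative fits, among them DESeq2 (adjusted p = 0.00943), and in 1 of 6 leave-one-out fits, that without Pdcd1f/f replicate 1, where the log2 fold change was −0.38. Over all alternatives the adjusted p ranged from 0.000168 to 0.246.

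**Figure D2:**
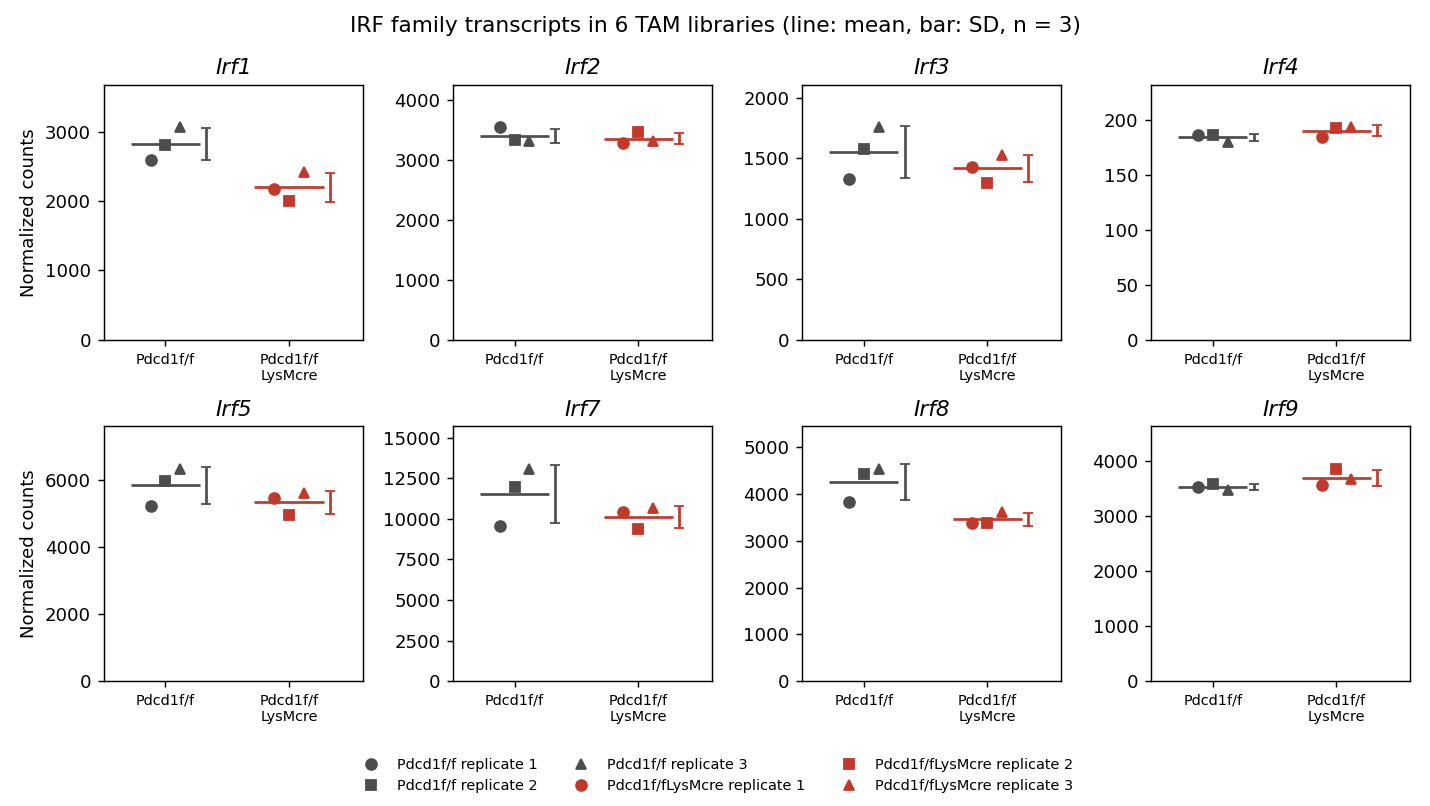
Normalized counts of the 8 members in each of 6 libraries, with a line at the mean and a bar for the SD of 3 libraries, and axes that start at 0. The genotypes are apart for Irf1 and Irf8 and overlap for Irf2, Irf3, Irf4, Irf5, Irf7 and Irf9.

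The members that act below nucleic acid sensors were not past the threshold with all 6 libraries. Irf7 (ENSMUSG00000025498, chromosome 7, 141262706 to 141266481, reverse strand) had 9565, 11953 and 13067 normalized counts in Pdcd1f/f and 10407, 9357 and 10636 in Pdcd1f/fLysMcre TAMs. Its genotypes overlapped because Pdcd1f/f replicate 1 was low, and the log2 fold change was −0.18 (SE 0.11, adjusted p = 0.312 from edgeR). Without Pdcd1f/f replicate 1 alone, Irf7 was lower past the threshold (−0.31, adjusted p = 0.0103 from edgeR). Without Pdcd1f/f replicate 3 it was at −0.09 (adjusted p = 0.736 from edgeR). Irf3 (ENSMUSG00000003184, chromosome 7, 44997648 to 45002848, forward strand) had 1326, 1576 and 1756 against 1429, 1299 and 1524 normalized counts, a log2 fold change of −0.13 (SE 0.11, adjusted p = 0.487 from edgeR). Irf5 (ENSMUSG00000029771, chromosome 6, 29526625 to 29541871, forward strand) had 5223, 5954 and 6323 against 5456, 4948 and 5603, a log2 fold change of −0.13 (SE 0.08, adjusted p = 0.377 from edgeR). With 1 library left out, Irf3 ranged from −0.24 to −0.03 and Irf5 from −0.21 to −0.07, neither past the threshold. In Irf7, Irf3 and Irf5, and also in Irf1, the lowest control library was Pdcd1f/f replicate 1 and the lowest with Cre was Pdcd1f/fLysMcre replicate 2. In Irf8 the lowest control was again Pdcd1f/f replicate 1, but the lowest with Cre was Pdcd1f/fLysMcre replicate 1. Pdcd1f/f replicate 1 and Pdcd1f/fLysMcre replicate 2 also stand apart by GC content. Of the exons of Irf5, 14.1% overlap Tnpo3 on the other strand, and the strand setting of the counting is not stated, so that part of its count is uncertain. Irf3 shares 88 bases with Bcl2l12 and Irf7 shares 45 bases with Phrf1 in the same way, and Irf1 shares 135 bases with Gm17334.

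Irf9, Irf2 and Irf4 had log2 fold changes near 0. Irf9 (ENSMUSG00000002325, chromosome 14, 55603571 to 55610030, forward strand) had 3529, 3578 and 3462 normalized counts in Pdcd1f/f and 3568, 3853 and 3665 in Pdcd1f/fLysMcre TAMs, for a log2 fold change of 0.07 (SE 0.06, 95% interval −0.07 to 0.21, adjusted p = 0.512 from edgeR). It shares 123 exonic bases with Rnf31 on the same strand. Irf2 (ENSMUSG00000031627, chromosome 8, 46739732 to 46847458, forward strand) had 3550, 3344 and 3325 against 3294, 3466 and 3320, a log2 fold change of −0.02 (SE 0.06, 95% interval −0.16 to 0.12, adjusted p = 0.888 from edgeR). Irf4 (ENSMUSG00000021356, chromosome 13, 30749226 to 30766976, forward strand) had only 186, 187 and 181 against 185, 193 and 194, a log2 fold change of 0.05 (SE 0.12, 95% interval −0.21 to 0.31, adjusted p = 0.834 from edgeR). The genotypes overlapped in all 3 genes.

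Once GC content and gene length were offset, Irf1 and Irf8 were both past the threshold, at log2 fold changes of −0.29 (adjusted p = 0.00102) and −0.26 (adjusted p = 0.0016, both from edgeR). These are nearer to 0 than the −0.36 and −0.30 without offsets. With the offsets 2 of 8 members passed, against 18.3% of all genes. The same offsets brought Irf7 to −0.07 (adjusted p = 0.398), Irf5 to −0.0067 (adjusted p = 0.93) and Irf3 to 0.0069 (adjusted p = 0.949, all from edgeR).

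Without Pdcd1f/f replicate 1 and Pdcd1f/fLysMcre replicate 2, 4 of the 8 members were lower past the threshold, against 26.2% of all genes tested in that fit in either direction. They were Irf8 (−0.36, adjusted p = 0.000168), Irf1 (−0.36, adjusted p = 0.000895), Irf7 (−0.25, adjusted p = 0.00156) and Irf5 (−0.15, adjusted p = 0.035, all from edgeR). Between the 2 libraries left out, Irf1 differed by −0.38 on the log2 scale of normalized counts and between the other 4 libraries by −0.36. For Irf8 these values were −0.17 and −0.36, for Irf7 −0.03 and −0.25, for Irf5 −0.08 and −0.15 and for Irf3 −0.03 and −0.17. The former set holds 1 library of each genotype and has no spread, so sizes cannot be compared between the sets.

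**Figure D3:**
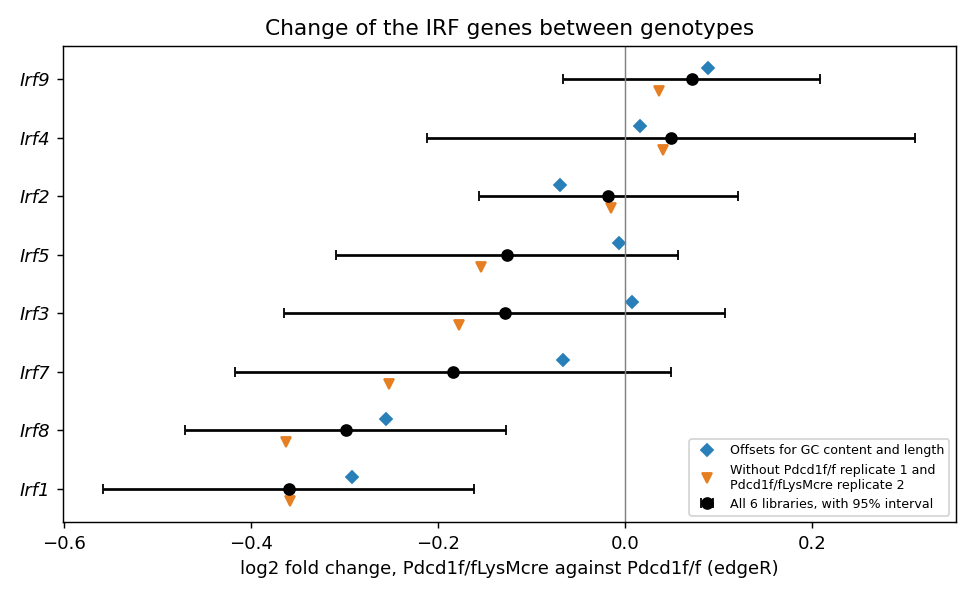
Log2 fold change of each member in Pdcd1f/fLysMcre against Pdcd1f/f TAMs from edgeR. Black points are the fit to all 6 libraries with 95% intervals, diamonds the fit with offsets for GC content and length, and triangles the fit without 2 libraries. Irf1, Irf8, Irf3, Irf5 and Irf7 all move towards 0 with the offsets. Irf1 and Irf8 stay below −0.2 in all of these fits.

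Irf8 was set beside each other member within a library, as a log2 ratio of raw counts, which needs no scaling between libraries. Relative to Irf9 the ratio was 0.11, 0.30 and 0.39 in Pdcd1f/f and −0.08, −0.19 and −0.02 in Pdcd1f/fLysMcre TAMs, a difference of −0.37. Relative to Irf4 it differed by −0.34 and relative to Irf5 by −0.17. These 3 of the 7 ratios were lower in every library with Cre than in every control (two-sided exact permutation test, p = 0.1 for each, the smallest that 3 libraries against 3 allow). The ratio of Irf8 to Irf2 differed by −0.28, to Irf3 by −0.17 and to Irf7 by −0.12 (exact permutation p = 0.2 for each), and in each of these 2 of the 3 libraries with Cre were below all controls. Relative to Irf1 the difference was 0.07, from 0.59 ± 0.05 to 0.65 ± 0.09 (SD, n = 3 each, exact permutation p = 0.4). Adjusted over the 7 ratios, the p was 0.233 for 6 of them and 0.4 for that to Irf1, and this design could not have passed 0.05.

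**Figure D4:**
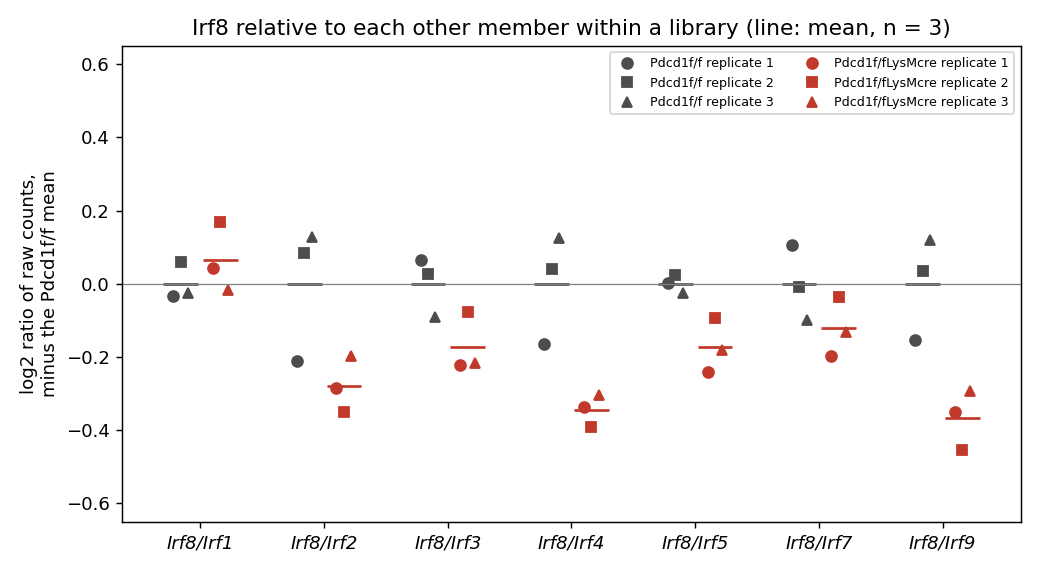
Log2 ratio of Irf8 to each other member in each library, minus the Pdcd1f/f mean of that ratio, with lines at the mean of 3 libraries. The ratios to Irf4, Irf5 and Irf9 are apart between genotypes, and the ratio to Irf1 overlaps.

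Across the 6 libraries, the member whose log2 CPM was most like that of Irf8 was Irf1 (Pearson r 0.952), followed by Irf7 (0.839), Irf5 (0.835) and Irf3 (0.774). The r was negative for Irf2 (−0.182), Irf4 (−0.596) and Irf9 (−0.627). Among 8430 genes with a mean of at least 10 CPM, the closest to Irf8 were the ceramide kinase gene Cerk (0.999), Natd1 (0.998), Maf1 (0.997), Pla2g15 (0.996) and Psmb9 (0.995), and 781 genes had an r over 0.9. For Irf1 they were Urm1 (0.996), Jun (0.996), Ndst2 (0.995), Camk1 (0.994) and Myo7a (0.994), with 893 genes over 0.9. These values describe 6 libraries that share the genotype split and the trend with GC content, and the part of either in these correlations was not tested.

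In a bulk sample, fewer cells of a type and less RNA per cell cannot be told apart. Summed levels of 10 macrophage markers were lower in the libraries where Irf1 and Irf8 were lower, from 6587 to 7165 CPM in Pdcd1f/fLysMcre against 7735 to 8983 CPM in Pdcd1f/f TAMs. Of these markers 6 were lower past the threshold, among them Adgre1, Csf1r, Mertk, C1qa and C1qb, none was higher and none was at 0. Over all genes tested 5.43% passed in that fit, 3.01% as lower. Cd14, a marker of the same list, had 49222, 53316 and 52882 normalized counts in Pdcd1f/f and 57192, 57131 and 57573 in Pdcd1f/fLysMcre TAMs (log2 fold change 0.15, adjusted p = 0.163), and was higher past the threshold with the offsets (0.23, adjusted p = 0.000139, both from edgeR). With the offsets 7 of the 10 were lower and 1 higher, and without the 2 libraries 8 were lower and 0 higher. Over all genes 18.3% passed with the offsets and 26.2% without the 2 libraries, in either direction. At an unadjusted p under 0.05 that share was 24.2%, and with DESeq2 12.2%. Counts of the other marker lists below stand against the same shares. Dendritic cells and B cells also express Irf8 and Irf4. The 8 dendritic cell markers summed to 5.64 to 7.17 CPM in Pdcd1f/f and 7.13 to 8.75 CPM in Pdcd1f/fLysMcre TAMs, with Xcr1, Clec9a and Siglech too low to test and none of the other 5 past the threshold in edgeR (2, both higher, at an unadjusted p under 0.05, 0 with DESeq2, 0 with the offsets and 1, higher, without the 2 libraries). The 6 B cell markers summed to 7.43 to 8.44 and 6.35 to 7.49 CPM, with Pax5 at 0 in every library. Of the 2 tested, Cd79b was apart between genotypes, as were 27.5% of all genes tested (log2 fold change −0.52, adjusted p = 0.067 from edgeR), and Ighm was at −0.04. Neither was past the threshold (1 at an unadjusted p under 0.05, 0 with DESeq2, 0 with the offsets and 1, lower, without the 2 libraries). The 8 T and NK cell markers summed to 13.1 to 14.7 and 11.9 to 14.1 CPM, and the 8 neutrophil markers to 89.4 to 96.6 and 79.8 to 84.0 CPM. Of the 5 neutrophil markers tested, Csf3r was lower past the threshold, 3 had a positive and 2 a negative log2 fold change, and S100a8 was higher with the offsets (0.22, adjusted p = 0.0174 from edgeR). The 8 fibroblast and stromal markers summed to 66.1 to 71.9 and 62.5 to 69.8 CPM. Of the 7 tested, Col1a2 was lower past the threshold, with 3 positive and 4 negative log2 fold changes, and Lum, too low to test, had 0, 4 and 0 counts in Pdcd1f/f and 13, 17 and 8 in Pdcd1f/fLysMcre libraries. The part of these markers in the change of Irf1 and Irf8 was not tested.

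Upstream of IRF3, IRF5 and IRF7, 2 of 25 genes of the sensor pathway were lower past the threshold and none was higher (10 at an unadjusted p under 0.05, 4 of them higher, and 8 with DESeq2, 3 of them higher). The offsets gave 6 lower and 4 higher, and leaving out the 2 libraries gave 9 lower and 5 higher. Counts of this and the following lists are to be read against the shares over all genes, which were 5.43% with all 6 libraries, 24.2% at an unadjusted p, 12.2% with DESeq2, 18.3% with the offsets and 26.2% without the 2 libraries. The 2 of 25 with all libraries is near that background. The median log2 fold change with all libraries was −0.07. Tlr8, an endosomal receptor for RNA, fell from 5767, 5055 and 5030 normalized counts to 3517, 3653 and 3287 (log2 fold change −0.60, SE 0.07, adjusted p = 0.00149 from edgeR), a call kept in 6 of 6 leave-one-out fits. Tmem173, which encodes the DNA-sensing adaptor STING, fell from 2987, 3678 and 3507 to 2598, 2495 and 2502 normalized counts (−0.42, SE 0.08, adjusted p = 0.0174 from edgeR), kept in 2 of 6. Unc93b1, which carries Toll-like receptors to endosomes, had the highest level per length of the list and a log2 fold change of −0.41 (adjusted p = 0.0559 from edgeR), outside the threshold. With the offsets Unc93b1 was lower past the threshold, at a smaller log2 fold change (−0.26, adjusted p = 0.000346 from edgeR).

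Of the 12 interferon genes listed, only Ifnb1 had enough counts to test, with 55, 39 and 26 counts in Pdcd1f/f and 47, 34 and 41 in Pdcd1f/fLysMcre TAMs (log2 fold change −0.09, SE 0.28, adjusted p = 0.877 from edgeR). The other 11 had from 0 to 4 counts in each library. A count of 0 allows up to 3 counts, or 0.0583 to 0.0717 CPM in these libraries, for counting error only.

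Of 10 genes for interferon receptors, their kinases and STAT proteins, which include the partners of IRF9, Ifngr1 was lower and Jak2 higher, and the median was 0.02. The offsets also gave 1 lower and 1 higher, and without the 2 libraries 3 were lower and 1 higher. Ifngr1, which encodes the ligand-binding chain of the interferon-γ receptor and had the highest level per length of the list, fell from 12270, 11928 and 11869 to 9655, 10431 and 9582 normalized counts (−0.28, SE 0.06, adjusted p = 0.0254 from edgeR). Jak2, a kinase bound to that receptor, rose from 4732, 4398 and 4209 to 5308, 5395 and 5189 (0.25, SE 0.06, adjusted p = 0.0484 from edgeR). The call of Ifngr1 was kept in 2 and that of Jak2 in 1 of 6 leave-one-out fits.

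Among 13 DNA-binding partners and corepressors, 2 were lower and none was higher (0 higher also at an unadjusted p under 0.05 and with DESeq2), with a median of −0.21 and 12 of 13 below 0. With the offsets 7 of 13 were below 0, with a median of −0.11, 2 were lower past the threshold and Irf2bpl, which encodes a protein related to the IRF2 corepressors, was higher (0.21, adjusted p = 0.00713 from edgeR). Without the 2 libraries all 13 were below 0, and 6 were lower past the threshold. Batf, an AP-1 partner of IRF4 and IRF8, fell from 438, 423 and 450 to 322, 240 and 299 normalized counts (−0.60, SE 0.12, adjusted p = 0.0189 from edgeR). Jun fell from 22311, 25227 and 27488 to 17790, 16434 and 19937 (−0.47, SE 0.09, adjusted p = 0.0167 from edgeR). Both were apart between genotypes in all libraries, as were 27.5% of all genes tested. The call of Batf was kept in 3 and that of Jun in 2 of 6 leave-one-out fits. Junb, the most abundant of the list per length, had a log2 fold change of −0.53 with a wide spread (SE 0.18, adjusted p = 0.119 from edgeR). With the offsets Junb was at −0.29 (adjusted p = 0.0629 from edgeR). None of 12 regulators of IRF proteins, such as ubiquitin ligases and phosphatases, was past the threshold in edgeR with all 6 libraries (1 at an unadjusted p under 0.05, 1 with DESeq2, 0 with limma), with a median of 0.01, and Tnfaip3, the most abundant per length, had a log2 fold change of −0.09 (adjusted p = 0.338 from edgeR). With the offsets Tnfaip3 was lower (−0.13, adjusted p = 0.0214) and the histone demethylase gene Kdm6b higher (0.20, adjusted p = 0.00133, both from edgeR), and without the 2 libraries 2 of the 12 were lower and 2 higher, against 26.2% of all genes.

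Downstream, antiviral genes of the ISGF3 type, the targets of IRF9, had 2 higher and none lower of 19 tested, with a median of 0.05 (at an unadjusted p under 0.05, 5 of 7 were higher). The offsets gave 3 higher and 1 lower, against 18.3% of all genes in either direction, and without the 2 libraries 4 were higher and 4 lower, against 26.2%. The 2 of 19 with all libraries stand against 5.43%. Ifit1, which binds foreign RNA, rose from 3302, 3333 and 3242 to 4048, 4570 and 3993 normalized counts (0.35, SE 0.07, adjusted p = 0.0167 from edgeR). Rtp4, induced by interferon and encoding a protein that transports receptors, rose from 3665, 3420 and 3473 to 4288, 4741 and 4309 (0.34, SE 0.07, adjusted p = 0.0163 from edgeR). Each call was kept in 2 of 6 leave-one-out fits. Bst2, which encodes the virus-tethering protein tetherin and was the most abundant of these genes per length, had a log2 fold change of −0.29 (adjusted p = 0.138 from edgeR). With the offsets Bst2 was at −0.14 (adjusted p = 0.15 from edgeR).

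Genes of the IRF1 type, which act in antigen presentation and the response to interferon-γ, had 3 lower and none higher of 20, with a median of −0.03 (at an unadjusted p under 0.05, 2 of 7 were higher, and with DESeq2 2 of 5). The offsets gave 3 lower and 2 higher, against 18.3% of all genes in either direction, and without the 2 libraries 7 were lower and 2 higher, against 26.2%. The 3 of 20 with all libraries stand against 5.43%. Cxcl9, a chemokine for T cells, fell from 2219, 2011 and 1927 to 1138, 1359 and 1160 normalized counts (−0.75, SE 0.09, adjusted p = 0.00122 from edgeR), with the call kept in 6 of 6 leave-one-out fits. Psmb9, a subunit of the immunoproteasome, fell by 0.37 (SE 0.09, adjusted p = 0.0441) and Nlrc5, an activator of MHC class I genes, by 0.28 on the log2 scale (SE 0.06, adjusted p = 0.035, both from edgeR). Each of the latter calls was kept in 1 of these fits. B2m, which encodes the light chain of MHC class I and was the most abundant per length, had a log2 fold change of 0.06 (adjusted p = 0.649 from edgeR).

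None of 12 myeloid genes linked to IRF8 was past the threshold in edgeR with all 6 libraries (4 at an unadjusted p under 0.05, 1 of them higher, 1 with DESeq2, 0 with limma), with a median of −0.05. The largest change of the list, that of Zbtb46, was upward (0.69, SE 0.24, adjusted p = 0.12 from edgeR). With the offsets Zbtb46 was also at 0.69 (adjusted p = 0.0536 from edgeR). With the offsets 3 were lower, Cybb, a subunit of the phagocyte oxidase (−0.28, adjusted p = 7.6e-05), the protease gene Ctsc (−0.19, adjusted p = 0.00498) and the cytokine gene Il18 (−0.20, adjusted p = 0.0117, all from edgeR), and none was higher. Without the 2 libraries 4 were lower and 1 was higher. Cst3, which encodes cystatin C and was the most abundant per length, had 24416, 28702 and 28795 normalized counts in Pdcd1f/f and 23426, 21093 and 23547 in Pdcd1f/fLysMcre TAMs (−0.27, SE 0.08, adjusted p = 0.0797 from edgeR). With the offsets Cst3 was at −0.10 (adjusted p = 0.0632 from edgeR). Of 7 tested genes of alternative activation linked to IRF4, Mrc1, the mannose receptor and most abundant per length of the list, was lower (−0.31, SE 0.07, adjusted p = 0.0219 from edgeR) and none was higher (0 at an unadjusted p under 0.05, 0 with DESeq2), with a median of −0.05. The offsets, and leaving out the 2 libraries, each gave 3 lower and 0 higher.

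Of 10 cytokine genes linked to IRF5, 4 were higher and 1 was lower past the threshold, with a median of 0.20. The offsets gave 6 higher and 2 lower, and without the 2 libraries 4 were higher and 2 lower. The genes for the inflammatory cytokines interleukin-1 and interleukin-6 and for interleukin-10, which restrains inflammation, were among those higher. Il1a rose by 0.69 (SE 0.08, adjusted p = 0.000695), Il6 by 0.56 (SE 0.14, adjusted p = 0.0403), Il10 by 0.36 (SE 0.08, adjusted p = 0.0311) and Il1b, the most abundant per length, by 0.31 (SE 0.06, adjusted p = 0.0128, all from edgeR). Ccl5, which attracts T cells, fell from 1004, 1079 and 1062 to 538, 567 and 645 normalized counts (−0.84, SE 0.09, adjusted p = 0.000713 from edgeR). The calls of Il1a and Ccl5 were kept in 6 of 6 leave-one-out fits, that of Il1b in 3, and those of Il6 and Il10 in 1 each. Irf5 itself was not past the threshold, and the list was gathered with results for Il1a, Il1b and Il6 in these libraries already known.

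The lists held 17 calls in all. Without Pdcd1f/f replicate 1 all 17 kept their call, and 4 of them (Tlr8, Cxcl9, Il1a and Ccl5) kept it whichever library was left out. The other 13 lost it in some fits. Calls were lost for 13 genes without Pdcd1f/f replicate 2, for 12 without Pdcd1f/f replicate 3, for 12 without Pdcd1f/fLysMcre replicate 1, for 10 without Pdcd1f/fLysMcre replicate 2 and for 7 without Pdcd1f/fLysMcre replicate 3, with adjusted p-values up to 0.21 from edgeR. The log2 fold changes kept their direction and moved by at most 1.26 times. Calls were also gained. Without Pdcd1f/f replicate 1, where 21.6% of all genes passed, the sensor pathway had 9 calls in place of 2, the IRF1 list 9 in place of 3, the ISGF3 list 6 in place of 2, the partners 5 in place of 2 and the regulators 3 in place of 0.

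**Figure D5:**
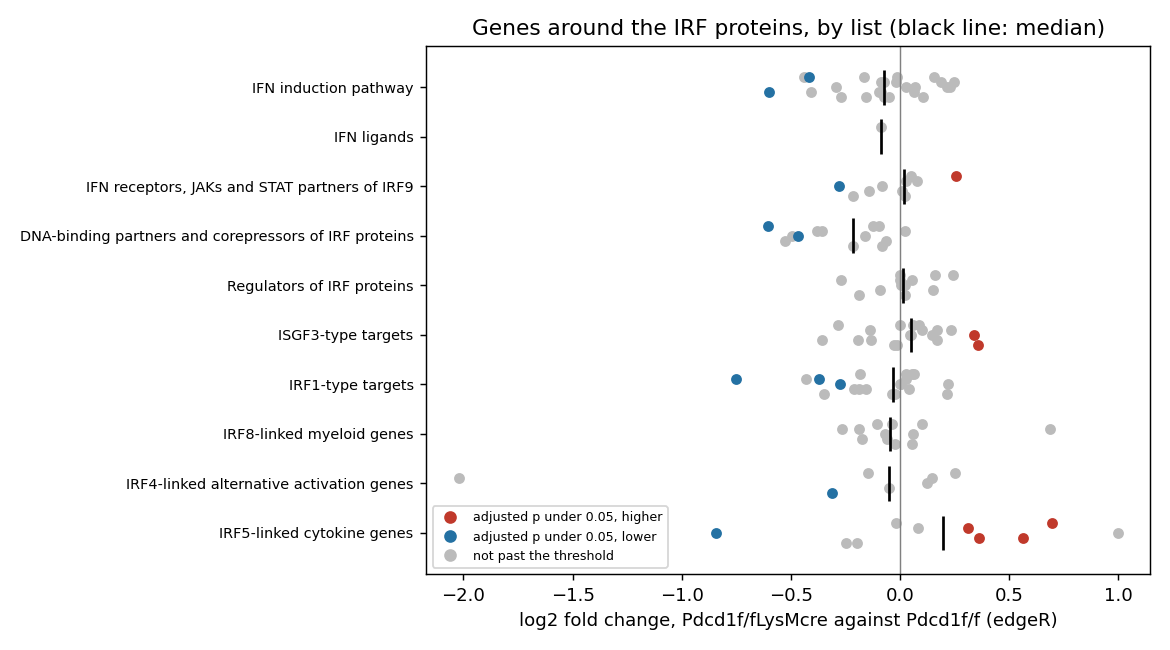
Log2 fold change of each tested gene in the lists around the IRF proteins, with a black line at the median of each list. Colored points had an adjusted p under 0.05 in edgeR with all 6 libraries. In that fit called genes of the ISGF3 list are higher, those of the IRF1 list are lower, and the IRF5 list holds both.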

How the data were processed

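RNA of 6 TAM libraries, 3 for each genotype, was sequenced from stranded polyA libraries as paired-end reads. Per the labels and the submitters' processing notes, reads were trimmed with cutadapt 2.5, aligned to GRCm38 with STAR 2.7.3a and counted with featureCounts (Subread 1.6.2). The strand setting and the handling of multi-mapped reads are not given in the sources used here. The deposited raw counts are given per Ensembl gene (55421 genes, of which 26637 had a count). The authors also deposited a signal table of normalized counts for 16552 genes, the counts divided by 1 DESeq2 1.24.0 size factor per library (0.895 to 1.08). Every column of sample values was used.

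The comparison used edgeR 4.0.16 (R 4.3.3) with raw counts, filtered by filterByExpr (at least 10 counts, total of at least 15), TMM scaling, the robust two-sided quasi-likelihood F test and Benjamini-Hochberg adjustment over 14469 genes, with a threshold of 0.05. Normalized counts in the text are the deposited values. Levels were compared between genes as CPM per kilobase of exons (GENCODE M21, GRCm38), and 14461 tested IDs had an annotation. Ratios used raw counts plus 0.5 and exact permutation tests (scipy 1.17.1). Promoters came from RefSeq (GRCm38.p6), where all 8 members matched. The common biological coefficient of variation was 8.92%. The fit was tested on simulated data, and the outcome of that test is not reported here.

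Alternatives were RLE scaling, library size alone, no filter, at least 10 counts in every library, DESeq2 1.42.0, limma-trend 3.58.1 on log2(value + 1) of the normalized table, a replicate block, loess offsets (span 0.5) for GC content and length, with and without that block, each library left out, 2 libraries left out together and a threshold of 0.01. Named genes were the members, in each list up to 4 called genes with the largest change and the most abundant gene per length, and the 5 genes closest in pattern to Irf8 and to Irf1. Marker genes, list genes called with the offsets, Tnpo3 and other overlapping genes were named beside a result after their values were seen. A few genes of the fixed lists are not reported here by name. The members and gene lists were chosen with earlier results of these data known.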

Additional observations from a re-analysis of the deposited data

How the results depend on the processing

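The number of members lower past the threshold, 1 with all 6 libraries, was 2 (Irf1 and Irf8) with RLE scaling, library size alone, no filter, at least 10 counts in every library, DESeq2, the replicate block, and GC and length offsets with or without that block. It was 4 without Pdcd1f/f replicate 1 and Pdcd1f/fLysMcre replicate 2, 0 at an adjusted p under 0.01, and 0 to 3 with 1 library left out. No member was higher under any of these settings. The log2 fold change of Irf8, past the threshold in each case, was −0.301 with RLE scaling, −0.316 with library size alone, −0.300 with no filter, −0.299 with at least 10 counts in every library, −0.299 with DESeq2, −0.296 with the replicate block, −0.256 with GC and length offsets, −0.255 with these and the replicate block and −0.362 without both libraries. With 1 library left out it ranged from −0.380 to −0.254. The sign of Irf3 reversed with GC and length offsets (0.00692, and 0.00771 with the replicate block), and that of Irf2 ranged from −0.0404 to 0.00366 with 1 library left out, reversed without Pdcd1f/f replicate 1. The cause was not tested. Same-numbered libraries of the genotypes deviated with r of −0.127, −0.5 and 0.733 over 8815 genes. These deviations also follow GC content, so the r values cannot show whether libraries were paired. The labels give no pairing beyond the replicate number. With the replicate block 1027 of 14469 genes passed.

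Over all genes, 786 passed with all 6 libraries, 1524 with DESeq2, 1951 with no filter, 2653 with GC and length offsets, 2714 with these and the replicate block, 3757 without both libraries and 222 to 3181 with 1 library left out. The share of lower genes among the calls was 55.5%, and 44.7% with the offsets. Irf4 had the fewest counts of the members, 165 to 203 in each library. The 95% interval of its log2 fold change ran from −0.21 to 0.31, and those of Irf3 (−0.36 to 0.11) and Irf7 (−0.42 to 0.05) were nearly as wide at higher counts.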
